A study of Mus musculus with 13 samples.

Results

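The genes described here encode 10 acute phase proteins of the liver, taken by symbol from the deposited liver table: Saa1, Saa2, Saa4, Orm1, Orm2, Orm3, Lcn2, Apcs, Crp and Itih4. All 10 were among the 11779 genes listed. Liver RNA came from 6 Balb/c mice, 3 in the Liver LL35 ASO group and 3 in the Liver Luc ASO group, collected 5 days after injection. The LL35 ASO mice received a mix of GalNAc-conjugated antisense oligonucleotides against the lncRNA LL35. The labels and the study's text give 5 in the mix, while its supplementary list of in vivo oligonucleotides holds fewer against LL35. The Luc ASO mice received a GalNAc-conjugated ASO against firefly luciferase, a gene that mice do not have. The dose of the LL35 mix was 150 mg/kg, which the labels give for each ASO and the study's methods give as a total, and the dose of the Luc ASO is not stated separately. The sources used here give neither the sex nor the age of the mice. GalNAc directs an oligonucleotide to hepatocytes, while the RNA was that of whole liver tissue, so cells other than hepatocytes contributed to it. Because RNA was taken from bulk tissue, fewer cells of a type and less RNA per cell cannot be told apart. The 7 libraries of AML12 hepatocytes were not analysed here.

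The acute phase response is the change in plasma proteins that follows infection or injury. Cytokines of the interleukin-6 and interleukin-1 families reach hepatocytes, where STAT3, NF-κB and C/EBP factors act on the genes of secreted proteins. Serum amyloid A proteins travel with high-density lipoprotein, orosomucoids (alpha-1-acid glycoproteins) bind drugs and lipids in plasma, and the pentraxins Crp and Apcs bind damaged cells and microbes. In the mouse, Saa1, Saa2 and Apcs are known as strongly inducible, Crp as weakly inducible, and Saa4 as largely constitutive.

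The level of each gene was the authors' mean normalized count, which is a single value pooled over the compared libraries. It has no replicate error, the reads behind it are unknown, and it is not split by group, so no value per mouse, test or confidence interval is given. The table also holds the authors' own comparison of LL35 ASO with Luc ASO livers, which was left out here by choice, and no difference between the groups is described. Ranks and positions given by mean normalized count depend on transcript length, since a longer transcript yields more reads. Levels of different genes were therefore also divided by length, as mean normalized count per kilobase of annotated exons. The order of genes that lie close in level therefore cannot be separated from the spread between mice.

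The Saa and Orm genes belong to families of similar sequence, which matters for their counts, since a read that fits 2 genes equally well is not counted by the aligner's gene counter. The sequences below show where the family members differ. The read length printed in the study's methods is too short to be plausible, so it was treated as not known. How much of a transcript is shared depends on it, so 3 window lengths are given further on. The first 75 coding bases of the orosomucoid transcripts lie in exon 1 of 6 on chromosome 4 of the GRCm38 reference, plus strand, at chr4:63344598-63344672 for Orm1, chr4:63362487-63362561 for Orm2 and chr4:63356200-63356274 for Orm3. Capitals mark the 15 positions at which the members are not all the same.
Orm1: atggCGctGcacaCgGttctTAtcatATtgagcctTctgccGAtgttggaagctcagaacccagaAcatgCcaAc
Orm2: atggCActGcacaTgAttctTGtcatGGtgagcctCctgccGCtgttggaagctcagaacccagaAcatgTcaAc
Orm3: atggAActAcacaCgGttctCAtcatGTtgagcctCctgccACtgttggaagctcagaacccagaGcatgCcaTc
Orm1 and Orm2 differed at 9 of these 75 positions, Orm1 and Orm3 at 10, and Orm2 and Orm3 at 11.

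The first 120 coding bases of Saa1 and Saa2 span exons 2 and 3 of 4 on chromosome 7 of the same reference. They lie within chr7:46741366-46742522 on the minus strand for Saa1 and within chr7:46752291-46753446 on the plus strand for Saa2, each interrupted by an intron. Capitals mark the 5 positions at which the pair differs.
Saa1: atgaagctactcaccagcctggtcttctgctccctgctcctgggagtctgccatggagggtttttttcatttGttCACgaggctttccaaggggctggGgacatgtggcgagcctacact
Saa2: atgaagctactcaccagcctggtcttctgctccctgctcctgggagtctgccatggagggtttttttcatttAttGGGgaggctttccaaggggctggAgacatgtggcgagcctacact

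Over the whole coding sequence, Saa1 and Saa2 were 95.1% identical, with 18 differing bases among 366. Saa4 was more distant, with 68.6% identity to Saa1 and 68.8% to Saa2 over the aligned bases. The coding sequences of Orm1 and Orm2 were 89.9% identical, those of Orm2 and Orm3 88.3%, and those of Orm1 and Orm3 86.4%. The longest stretch without a difference measured 141 bases between the Orm1 and Orm2 transcripts and 76 bases between Saa1 and Saa2. Between Saa1 and Saa4 it measured 15 bases. The pentraxins Crp and Apcs were 63.6% identical and shared no stretch longer than 12 bases.

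Cut into windows of 50 bases, 22.7% of the Orm2 transcript and 20.4% of the Orm1 transcript occurred exactly in a transcript of another gene. Every one of the 148 shared windows of Orm1 occurred in Orm2, which had 165 shared windows in all, 26 of them in Orm3. For Saa1 the share was 14.8%, made up of 74 windows shared with Saa2 and 9 with Saa3, and for Saa2 it was 9.12%. For Orm3 it was 3.59%, for Saa4 1.37% and for Crp 1.15%, and in Lcn2, Apcs and Itih4 no window of 50 bases was shared. None of the shared Saa4 windows occurred in another Saa gene, and none of the shared Crp windows occurred in Apcs. With windows of 100 bases, Orm1 and Orm2 kept 6.95% shared and the other 8 genes had none. Most windows of each member were thus found in that gene alone, and a smaller such part remained for Orm1, Orm2 and Saa1 than for Lcn2, Apcs or Itih4.

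**Figure D1:**
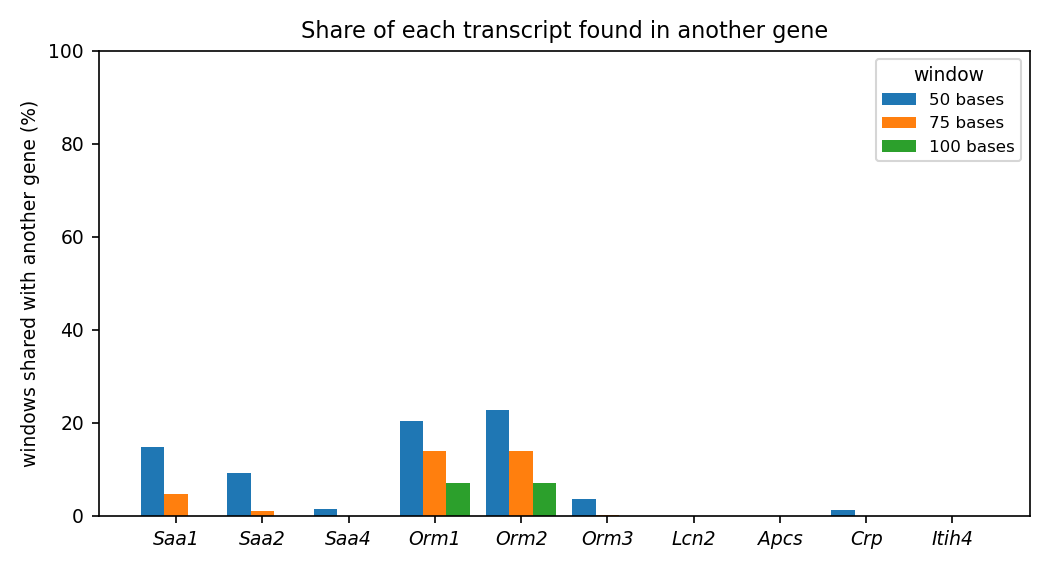
Percentage of windows of each member's transcript (y axis, %) that occur exactly in a transcript of another gene, for windows of 50, 75 and 100 bases (bars). Orm1 and Orm2 stand highest at every window length, Saa1 follows at 14.8% for 50 bases, and Lcn2, Apcs and Itih4 are at 0.

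By mean normalized count, the members were spread from rank 48 to rank 10293 of the listed genes. Over all 11779 listed genes, the authors' mean normalized count had a median of 235 and ran from 15.6 to 1217472, the highest value being that of Alb, which encodes albumin. Of the 10 members, 7 lay above that median and 3 below it, and 6 lay above the upper quartile of 625. These positions hold among the listed genes only. No listed gene was below 15.6, so a gene that was not listed may still have been expressed at a lower level. The median of the members was 1315. Together they took up 0.304% of the summed mean normalized counts, and Itih4 alone accounted for 63.6% of the members' sum, or 42.4% of their sum per kilobase.

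Itih4, a heavy chain of the inter-alpha-trypsin inhibitor family that is secreted by hepatocytes, was the most abundant member with a mean normalized count of 21879. It ranked 48 of all listed genes, so that 99.6% of them were lower. Per kilobase its level was 5929, again the highest of the members. Its relatives Itih2 and Itih1, which are joined to bikunin in plasma, stood at 4657 and 1969 per kilobase, and Ambp, the gene of bikunin, at 9092. Itih3, a further relative that is counted below among the other positive acute phase genes, stood at 3598 per kilobase. The level of Itih4 per kilobase was 1.27 times that of Itih2, 1.65 times that of Itih3 and 3.01 times that of Itih1.

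The 2 pentraxin genes were both abundant. Crp, which encodes C-reactive protein, had a mean normalized count of 4043 at rank 343, and Apcs, which encodes serum amyloid P component, had 1929 at rank 849. Which of them stood higher depended on the length used. Per kilobase of merged exons Apcs was at 1987 and Crp at 1174, whereas per kilobase of coding length Crp was at 5989 and Apcs at 2871. The annotation gives Crp 3444 bases of merged exons, of which 675 are coding, and the order of the pair is therefore not fixed by these values. In the reference annotation 1 other gene overlaps the Crp locus (chr1:172698055-172833031), and the strand setting of the counting is not given in the sources used here.

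Among the serum amyloid A genes, Saa4 was the most abundant. It had a mean normalized count of 3018 at rank 486. Saa1 had 439 at rank 3960, and Saa2 had 103 at rank 8271, below the median of the listed genes. Per kilobase of merged exons, Saa4 stood at 1441, Saa1 at 177 and Saa2 at 41.0, so that Saa4 was 8.13 times Saa1 and Saa1 was 4.33 times Saa2. The annotated exons of Saa1 and Saa2 include transcripts with a retained intron, which stretch their merged lengths to 2478 and 2518 bases. Per kilobase of coding length the 3 genes stood at 7738, 1200.3 and 282, in the same order, with ratios of 6.45 and 4.26. With the whole-gene count divided by the number of windows of 50 bases found in no other gene, the values per kilobase were 1496, 921 and 188. The count itself was not limited to reads in these windows. These windows came from a single coding transcript per gene, of 609 bases for Saa1 and 2094 for Saa4. There the gap between Saa4 and Saa1 was much smaller than by merged exons or coding length. The order of the 3 genes held, but the size of that gap depended on the length used. Saa3, a relative that is known from macrophages and fat, had a mean normalized count of 69.4.

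The orosomucoid genes differed most among themselves. Orm1 had a mean normalized count of 2179.6 at rank 728, Orm3 had 69.8 at rank 9234, and Orm2 had 40.7 at rank 10293. The 3 transcripts are of nearly equal length, at 775, 773 and 775 bases, and their levels per kilobase were 2812, 90.3 and 52.5. With the pseudogene Gm11212, which was not listed, between the first pair, the genes lie on chromosome 4 in the order Orm1 (chr4:63344560-63348163), Orm3 (chr4:63356162-63359511) and Orm2 (chr4:63362449-63365878), all on the plus strand. By level, Orm1 was 53.6 times Orm2 and 31.1 times Orm3, while Orm3 was 1.72 times Orm2. With the same counts divided by the number of windows of 50 bases found in no other gene, the values per kilobase were 3771 for Orm1, 100.1 for Orm3 and 72.5 for Orm2. Only the length changed there. Reads from shared windows could not be left out of the counts, so how far such reads affect the levels was not tested. Orm2 and Orm3 were the lowest members by mean normalized count, and both lay below the lower quartile of all listed genes, which was 82.0.

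Lcn2, which encodes the siderophore-binding protein lipocalin 2, lay in the middle of the members. Its mean normalized count was 700.2 at rank 2641, and 77.6% of the listed genes were lower. Its level per kilobase was 267 with merged exons, 509.6 with the longest transcript and 816 with the coding length. It stood above Saa1 by the first 2 measures and below Saa1, at 1200.3, by the coding length. With the count divided by the number of windows found in no other gene, Lcn2 was also below Saa1, at 815 against 921. Lcn2 is also known as a product of neutrophil granules. Of the 9 neutrophil markers examined, 7 (Ly6g, Mpo, Elane, Ltf, Camp, Ngp and Retnlg) were not among the listed genes, and the other 2, S100a8 and S100a9, had mean normalized counts of 23.0 and 18.8. The lowest listed value was 15.6, so these 2 lay near the lower end of the list, and the other 7 may still have been expressed. The part of neutrophils in the level of Lcn2 was not tested.

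**Figure D2:**
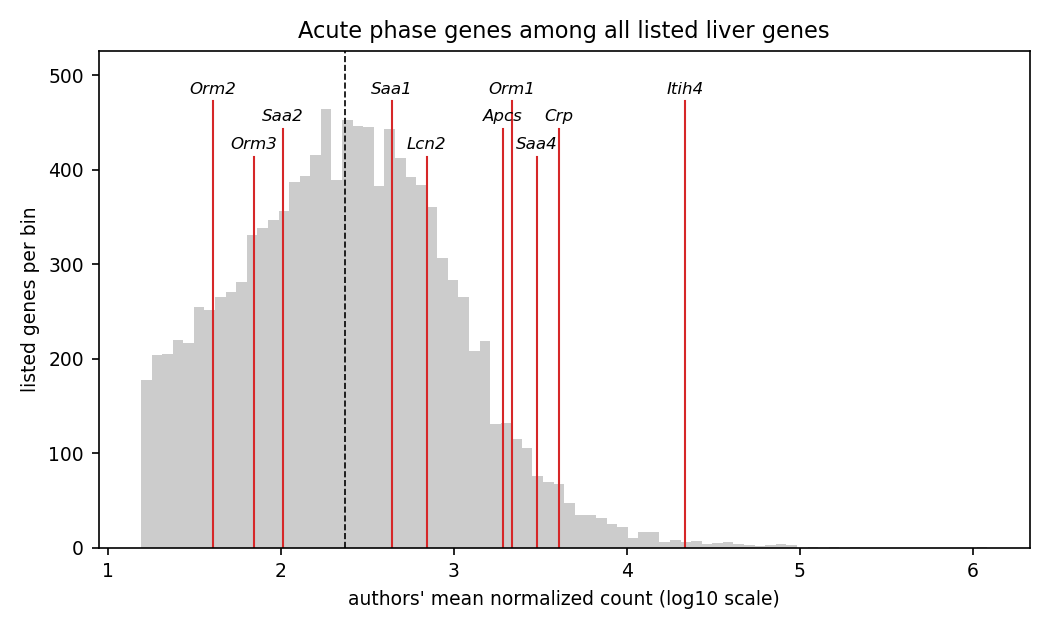
Histogram of the authors' mean normalized count of all 11779 listed genes (x axis, log10 scale; y axis, genes per bin), with a red line for each acute phase gene and a dashed line at the median of 235. Itih4 lies far to the right at 21879, and Saa2, Orm3 and Orm2 lie to the left of the dashed line.

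Per kilobase of merged exons, 9 of the 10 members lay above the median of all listed genes, which was 51.5, and the median of the members was 720.4. Saa2 was the exception with 41.0, and Orm2 lay just above the median with 52.5. By this measure the order from the top was Itih4, Orm1, Apcs, Saa4, Crp, Lcn2, Saa1, Orm3, Orm2 and Saa2. Per kilobase of coding length, Saa4 moved from place 4 to place 2 and Crp from 5 to 3, and Orm2 took the lowest place. Saa2, whose merged exons include a retained intron, moved from place 10 to place 8 by the coding length, at 282. It also held place 8 with the whole-gene count divided by the number of windows found in no other gene, at 188. Itih4 held the first place per kilobase of merged exons, of the longest transcript and of the windows found in no other gene, whereas with the coding length Itih4 (7742) and Saa4 (7738) were nearly equal.

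**Figure D3:**
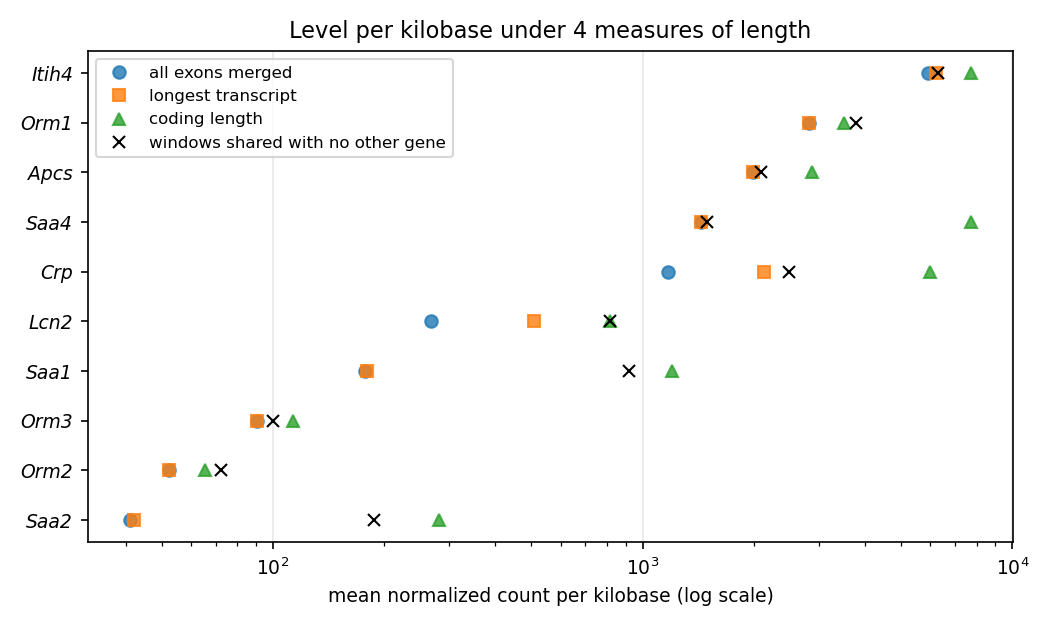
Mean normalized count per kilobase (x axis, log scale) of each member under 4 measures of length (symbols). Itih4 is the highest, with Saa4 level with it under the coding length, the Orm2, Orm3 and Saa2 genes are the lowest under each measure, while Crp, Lcn2, Saa1, Saa2 and Saa4 shift to the right under the coding length.

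The other genes of the response were described in the same way, from lists of known roles. All 14 further positive acute phase genes were listed, with a median of 7516 per kilobase against 720.4 for the members. By mean normalized count, which depends on length, the top 3 were complement C3 (120705) and the fibrinogen chains Fgb (43564) and Fga (43319). Per kilobase the top 3 were Hamp (24245), the gene of the iron hormone hepcidin, Hpx (23506), which encodes the heme-binding hemopexin, and C3 (23470). Il1rn, the interleukin-1 receptor antagonist, was the lowest of the list per kilobase with 29.6. All 7 negative acute phase genes, whose plasma proteins are known to fall in inflammation, were listed with a median of 41124 per kilobase. Alb, Trf (transferrin) and Ahsg (fetuin-A) had the highest mean normalized counts among them, and the lowest level per kilobase, that of Serpina6, was 1468. Haptoglobin, Hp, stood at 7.05 times Orm1 per kilobase.

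Among the genes that lie upstream, the cytokine ligands were little represented in the list. Of 8 ligands, Il6, Tnf, Osm, Lif, Il22 and Ifng were not among the listed genes, and Il1a and Il1b had mean normalized counts of 49.4 and 29.1. The lowest listed value was 15.6, so the ligands that were not listed may still have been expressed. All 12 receptor and signal transducer genes were listed. Per kilobase the top 3 were Il6st (421), which encodes the shared signalling chain gp130, Il6ra (402), the interleukin-6 receptor, and Il1r1 (340), the interleukin-1 receptor, followed by the kinase gene Jak1 (304), whose mean normalized count was above that of Il1r1. The feedback inhibitors were listed too, with mean normalized counts of 1466 for Zfp36, 592 for Nfkbia, 127 for Tnfaip3 and 113 for Socs3. Per kilobase these genes stood at 423, 368, 17.6 and 39.1, so that Socs3 was above Tnfaip3. Of the 6 transcription factors of hepatic acute phase genes, Hnf4a was highest at 2550 per kilobase, followed by Cebpa at 1219 and Cebpb at 1149.6.

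The tissue label was compared with marker genes. The 7 hepatocyte markers had a median of 23757 per kilobase, and those with the highest mean normalized counts were Alb, Cps1 and Apoa1. Markers of other liver cells were present at lower levels. The 7 Kupffer cell and macrophage markers (Clec4f, Cd5l, Csf1r, Vsig4, Marco, Adgre1 and Timd4) ran from 55.4 to 791 per kilobase. The 5 endothelial markers (Stab2, Kdr, Clec4g, Pecam1 and Lyve1) ran from 41.4 to 289, and the 4 stellate cell markers (Reln, Dcn, Lrat and Col1a1) from 18.2 to 265. Of the 4 adipocyte markers, Plin4, Cidec and Plin1 were listed, with 4.59 to 146.1 per kilobase, and Adipoq was not. How much of a member's level came from these cells was not tested.

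**Figure D4:**
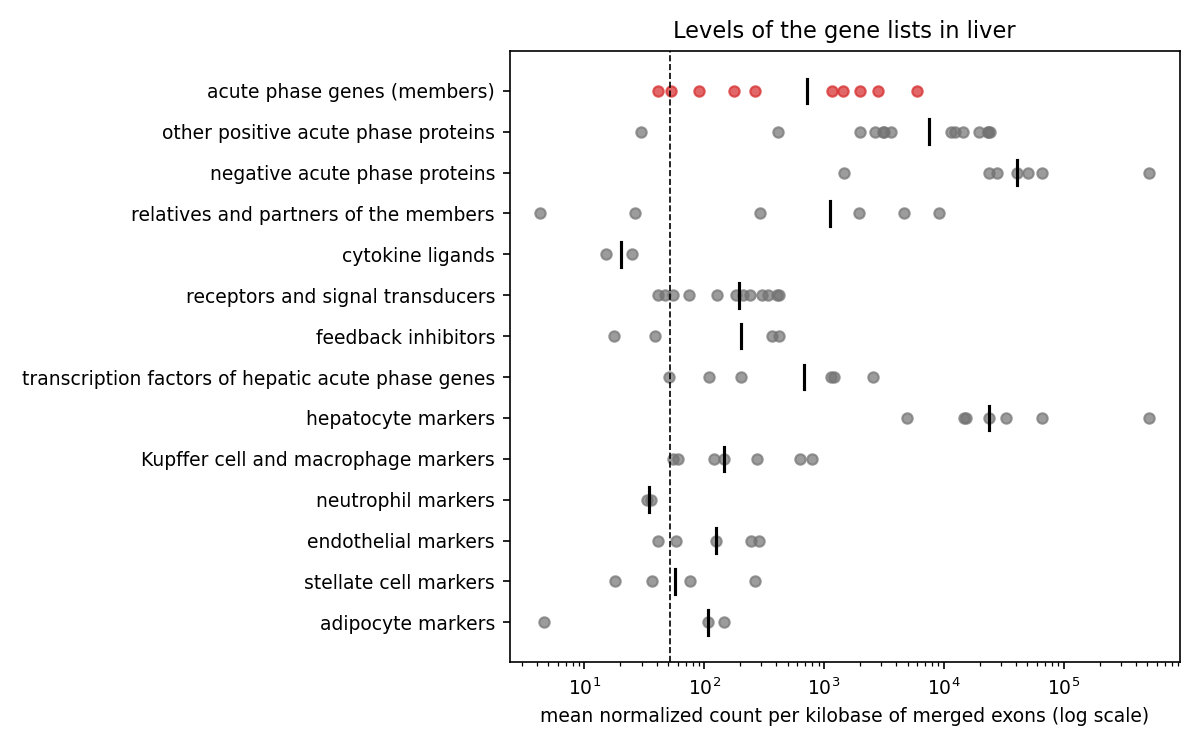
Mean normalized count per kilobase of merged exons (x axis, log scale) of each listed gene in the 14 gene lists (rows); short bars are medians and the dashed line is the median of all listed genes, 51.5. The members (red) spread from 41.0 to 5929, with a median of 720.4 against 41124 for the negative acute phase genes and 20.1 for the cytokine ligands.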

How the data were processed

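RNA of the liver samples was sequenced by the authors after rRNA depletion with a directional library kit. According to the study's methods and the submitters' processing notes, the authors aligned reads with STAR 2.5.3a, counted them on Ensembl genes and normalized the counts in DESeq2 by the RLE method. The genome build and annotation release are not given in the sources used here. The deposited table gives for each gene the authors' mean normalized count, a signal averaged over the compared libraries. Its other 5 numeric columns hold the authors' own comparison of the liver groups (log2 fold change, standard error, statistic, p-value and adjusted p-value) and were not used. The depth per mouse is unknown.

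Members and lists were chosen with earlier results of these data known. Named are all members, the 3 genes with the highest mean normalized count in each other list, the listed cytokines, feedback inhibitors and markers of other cell types, and further genes chosen after their values were seen. The printed Orm stretch was shortened to 75 bases after a gap was seen in the alignment. Merged exon, longest transcript and coding lengths came from GENCODE M21 (GRCm38), which held 11754 of the 11779 identifiers. Pairs of coding sequences were aligned globally (match 2, mismatch -1, gap opening -5, gap extension -0.5) in Biopython 1.88, taking for each gene the transcript with the longest coding sequence. Windows of 50, 75 and 100 bases were matched exactly on both strands against all GENCODE transcripts, and the genome outside transcripts was not searched. The steps were tested on simulated data, and ran in Python 3.11.15 with pandas 2.3.3, scipy 1.17.1 and matplotlib 3.10.9.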

Additional observations from a re-analysis of the deposited data

How the results depend on the processing

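The values rest on pooled means with an unknown depth, so no replicate could be left out and none of them has an error. No paired analysis was possible because the table holds no column for a single mouse. The median share of listed genes that were lower than a member was 85.2%, and it was 91.4% when genes under a minimum of 50 were dropped, which leaves out Orm2 and makes Apcs the median, and 84.9% among protein-coding genes. With that minimum the share fell for each of the other 9 members, for Apcs from 92.8% to 91.4% and for Orm3 from 21.6% to 6.94%. The members' median level per kilobase of 720.4 became 975 with the longest transcript, 2035 with the coding length and 1209 with the windows shared with no other gene, an alternative chosen after the data were seen. The last also replaces merged exons by a single transcript, and Lcn2, with no shared window, moved from 267 to 815, so the move is not that of the shared windows alone. The count that was divided remained that of the whole gene. The members' share of the summed counts of 0.304% became 0.311% without the mitochondrial genes, 0.341% without Alb and 0.383% per kilobase. Coding lengths were taken from the annotation's coding exons. Over whole transcripts in place of coding sequences, identity was 94.4% for Saa1 and Saa2 and 91.0% for Orm1 and Orm2.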
